A study of Mus musculus with 6 samples.

Results

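The 6 mouse actins that build muscle and cytoplasmic filaments, Acta1, Actc1, Acta2, Actg2, Actb and Actg1, were followed in the left ventricle of mice lacking MURC. Members were the probe sets that the platform annotation gives a single one of these symbols, which yielded 5 genes of 19938 genes named in this way. Actg1 had no probe set of its own, because its 4 probe sets are listed under Actb as well. Acta1 was selected on its log2 signal on these arrays, for being higher in the knockout than in the wild type, so its genotype difference is a description without a test, and the other isoforms entered as its family.

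Expression was measured on 3 arrays from MURC knockout (KO) hearts and 3 arrays from wild-type (WT) hearts, all from male C57BL/6 mice. MURC is the product of Cavin4 and belongs to the cavins, which coat the caveolae of the muscle cell membrane. The KO samples were labelled 11, 11 and 13 weeks old and the WT samples 13, 13 and 12 weeks. The labels do not say how the allele was made or whether each sample is a different mouse, and p-values therefore refer to the spread among the samples, which may be technical.

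Actins are globular proteins that assemble into filaments, and their isoforms are very similar in sequence but are expressed in different cells. In the adult mouse ventricle the thin filament of the sarcomere is built mainly from cardiac alpha-actin (Actc1). Skeletal alpha-actin (Acta1) is its close relative, abundant in the developing heart and known for its return in the overloaded rodent ventricle. Acta2 and Actg2 encode the smooth muscle actins, and Actb and Actg1 the cytoplasmic actins of all cells. Serum response factor (SRF), helped by actin-sensing cofactors, drives many actin promoters through an A/T-rich element called the CArG box.

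Cavin4, the targeted gene, measured 5.38, 5.74 and 5.59 on the KO arrays and 8.75, 8.62 and 8.07 on the WT arrays, on the log2 scale, so every array followed its label. It was the 1 probe set of 24898 tested that passed an adjusted p under 0.05 in limma (0.00402%). Over all probe sets tested, the median difference, KO minus WT, was -0.04 and 59% of the differences were below 0. Ventricular markers were bright on every array, with the cardiac myosin gene Myh6 between 12.70 and 12.72 in KO and between 12.71 and 12.72 in WT. KO replicate 2 stood apart in 2 atrial markers. The atrial light chain gene Myl7 measured 7.22 on it, against 3.87 and 4.11 on the other KO arrays and 3.61 to 4.06 on the WT arrays, and Myl4 measured 8.67 on it, against 5.61 and 5.53 in KO and 5.41 to 5.55 in WT. A lower or higher signal in whole tissue cannot tell fewer cells of a type from less RNA per cell.

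Skeletal alpha-actin had a higher signal in the knockout, the value for which it was chosen. Acta1 measured 10.02, 9.72 and 9.69 in KO hearts and 9.15, 9.15 and 9.36 in WT hearts, all log2 signals. Every KO array lay above every WT array, and the gap between the lowest KO and the highest WT array was 0.33, as wide as the whole range of the KO arrays. The means were 9.81 ± 0.18 in KO and 9.22 ± 0.12 in WT (SD, n = 3 each), a difference of 0.59 (SE 0.10) or 1.51-fold. KO replicate 1 was the brightest array, and without it the difference was 0.485. Without KO replicate 2, the array with raised Myl7 and Myl4, it was 0.635. Age was not balanced between the genotypes. Among the 13-week samples alone, Acta1 measured 9.69 in the 1 KO heart and 9.15 in both WT hearts, and with age as a covariate the difference was 0.476.

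Cardiac alpha-actin had a slightly lower mean in the knockout. Actc1 measured 13.10, 13.09 and 13.09 in KO hearts and 13.16, 13.19 and 13.26 in WT hearts. The groups did not overlap, the KO arrays were nearly identical and the WT arrays spread over 0.10. The difference was -0.11 (SE 0.05, 95% interval -0.22 to 0.00066) and did not pass in limma (adjusted p = 0.368). Quantile normalization left a difference of -0.03 for Actc1, so its size depended on how the arrays were scaled.

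Set against Actc1 on the same array, Acta1 was higher by 0.70 more in KO than in WT. Centred on the mean of the 6 arrays, this within-array difference was 0.55, 0.26 and 0.23 in KO and -0.38, -0.41 and -0.27 in WT. All KO arrays lay above all WT arrays. Because Acta1 was picked for its difference, no test is attached, and the brightness of the 2 probe sets says nothing about how much of each transcript was present.

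**Figure D1:**
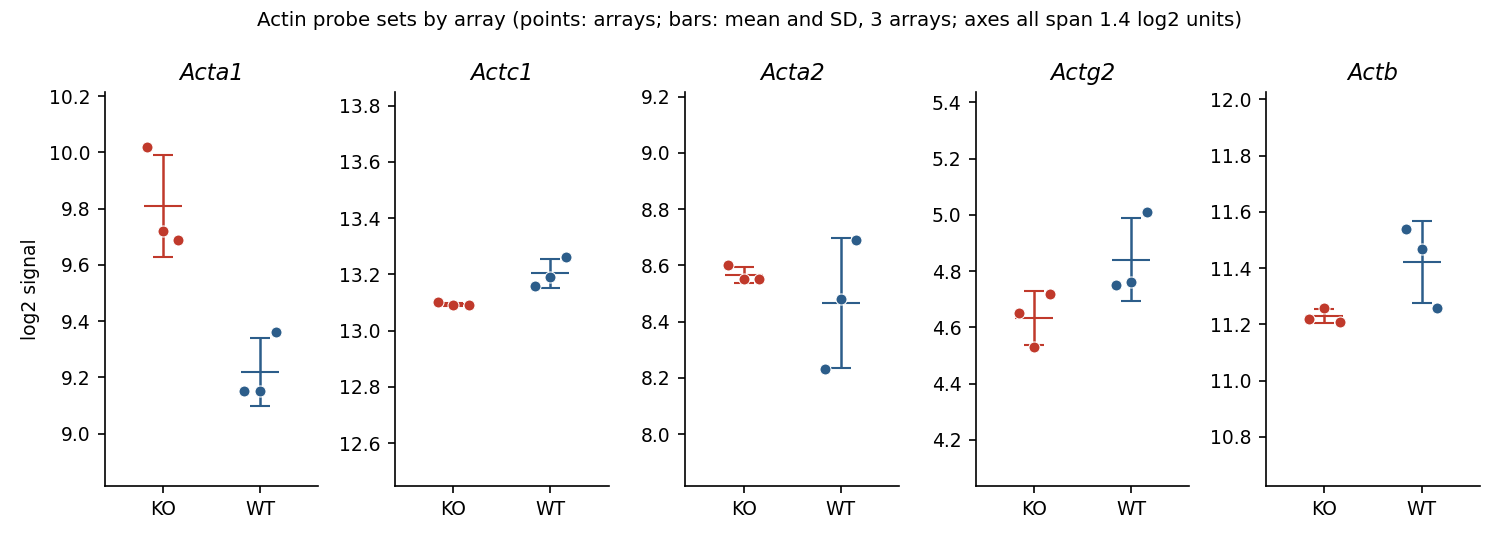
Log2 signal of the 5 actin isoforms with a probe set of their own, KO left and WT right in each panel; points are arrays and bars the mean and SD of 3 arrays, and every vertical axis spans the same log2 range. The Acta1 mean is 0.59 higher in KO, with a gap of 0.33 between the groups. Actc1 and Actg2 lie slightly lower in KO without overlap, and Acta2 and Actb overlap.

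The promoters of the alpha-actins are shown because they carry the elements through which SRF is known to act on these genes. The RefSeq table (GRCm38.p6) held 4 of the 6 members, Acta1, Actc1, Acta2 and Actg1. The 250 bases before the transcription start given there are printed 5′ to 3′ on the minus strand for Acta1 (chr8:123894776-123895025), Actc1 (chr2:114052876-114053125) and Acta2 (chr19:34255374-34255623). The start used for Acta2 lies inside the annotated gene, which ends at 34255585, so its window overlaps the gene. Capitals mark CArG boxes, CArG boxes with 1 G or C among their 6 middle bases, and the MCAT core CATTCC or its complement GGAATG, the element bound by TEAD factors.
Acta1: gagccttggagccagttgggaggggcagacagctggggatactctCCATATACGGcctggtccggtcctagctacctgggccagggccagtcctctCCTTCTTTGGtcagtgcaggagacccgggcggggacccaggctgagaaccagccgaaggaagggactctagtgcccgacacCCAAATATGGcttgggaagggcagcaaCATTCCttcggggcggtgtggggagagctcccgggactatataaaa
Actc1: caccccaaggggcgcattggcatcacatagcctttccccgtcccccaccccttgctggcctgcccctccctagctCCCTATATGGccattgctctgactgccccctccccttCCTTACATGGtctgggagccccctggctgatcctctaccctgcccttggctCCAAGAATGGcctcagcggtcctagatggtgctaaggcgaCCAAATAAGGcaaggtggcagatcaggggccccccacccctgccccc
Acta2: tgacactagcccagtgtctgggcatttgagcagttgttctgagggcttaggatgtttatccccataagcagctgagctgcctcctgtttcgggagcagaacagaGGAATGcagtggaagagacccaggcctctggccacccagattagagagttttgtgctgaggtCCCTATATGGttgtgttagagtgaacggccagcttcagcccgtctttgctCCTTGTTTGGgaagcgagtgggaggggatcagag

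Both sarcomeric actins held 1 exact CArG box, CCAAATATGG at 73 to 64 bases before the start of Acta1 and CCAAATAAGG at 47 to 38 bases before that of Actc1. Acta1 held 2 more and Actc1 3 more with 1 G or C in the middle. Acta2 held 0 exact boxes but 2 with 1 G or C, CCCTATATGG at 84 to 75 and CCTTGTTTGG at 34 to 25. The promoter of Actg1 held CCATATATGG at 90 to 81. An exact box was found in 3 of the 4 actin promoters and in 1.47% of the 32851 promoters in the table, and one with 1 G or C in 3 of 4 and in 7.24%. The MCAT core, searched on both strands, was in Acta1 and Acta2 and in 12.6% of all promoters. The word TATAAA, also searched on both strands, was in 1 of the 4, Acta1, and in 12.4% of all promoters. It lay 7 to 2 bases before the start of Acta1. All distances count from the annotated starts, and the starts used in these hearts were not measured. These matches are letters in a window, and no binding was measured.

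Smooth muscle alpha-actin overlapped between the genotypes. Acta2 measured 8.60, 8.55 and 8.55 in KO hearts and 8.23, 8.48 and 8.69 in WT hearts. The KO arrays lay within 0.05 of each other and inside the WT range, which spanned 0.46. The difference was 0.10 (SE 0.11, 95% interval -0.16 to 0.36) and did not pass in limma (adjusted p = 0.761), and without WT replicate 1 it was -0.018.

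The enteric smooth muscle actin Actg2 was dim. It measured 4.65, 4.53 and 4.72 in KO hearts and 4.75, 4.76 and 5.01 in WT hearts. The groups were separated by only 0.03, and WT replicate 3 was the highest array. The difference was -0.21 (SE 0.11, 95% interval -0.47 to 0.06) with a limma adjusted p of 0.487. Without WT replicate 3 it was -0.12.

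Other smooth muscle genes were read beside these isoforms. Of 9 smooth muscle markers, 7 were higher and 2 lower, with a median difference of 0.09, and 0 passed the adjusted threshold. Myh11, the smooth muscle myosin heavy chain, measured 6.88, 6.92 and 6.96 in KO and 6.50, 6.66 and 6.55 in WT, a difference of 0.35 (SE 0.07) with a limma adjusted p of 0.113. Tagln, the actin-binding protein transgelin, measured 5.53, 5.37 and 5.53 in KO and 4.74, 5.23 and 5.20 in WT, and its groups did not overlap either (limma adjusted p = 0.276). Without WT replicate 1 the Tagln difference was 0.26, against 0.42 with all arrays. Smtn (smoothelin) measured 8.04, 8.11 and 7.97 in KO and 8.22, 8.14 and 8.14 in WT, lower without overlap. Cnn1 (calponin) measured a difference of 0.16, and 0.092 without WT replicate 3. Without overlap, 2 of the 9 markers were higher and 1 lower, where 6.12% of all probe sets were higher and 12.9% lower in this way. The summed signal of the list ran from 9.86 to 9.89 in KO and from 9.77 to 9.87 in WT. Its part in the Acta2 and Actg2 values was not tested.

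Beta-actin was lower on average, but not on every array. Actb measured 11.22, 11.26 and 11.21 in KO hearts and 11.54, 11.47 and 11.26 in WT hearts. WT replicate 3 equalled KO replicate 2, while the other two WT arrays were well above all KO arrays. The difference was -0.19 (SE 0.08, 95% interval -0.37 to -0.014), with an unadjusted p of 0.0379 and a limma adjusted p of 0.332. It was -0.275 without WT replicate 3 and -0.135 without WT replicate 1.

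The 4 probe sets listed under both Actg1 and Actb followed the same arrays. The first measured 10.72, 10.73 and 10.77 in KO and 11.01, 10.91 and 10.74 in WT. All 4 had a lower mean in KO, with differences between -0.17 and -0.10 and limma adjusted p between 0.418 and 0.487, and 1 of them did not overlap. On these 4, as for Actb, WT replicates 1 and 2 were the highest arrays, as the plot of the cytoplasmic actin probe sets shows. Actb and Actg1 encode near-identical proteins, and transcripts of both may bind probe sets listed under both symbols. Actg1 itself was not resolved, and the 4 are not separate evidence.

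**Figure D2:**
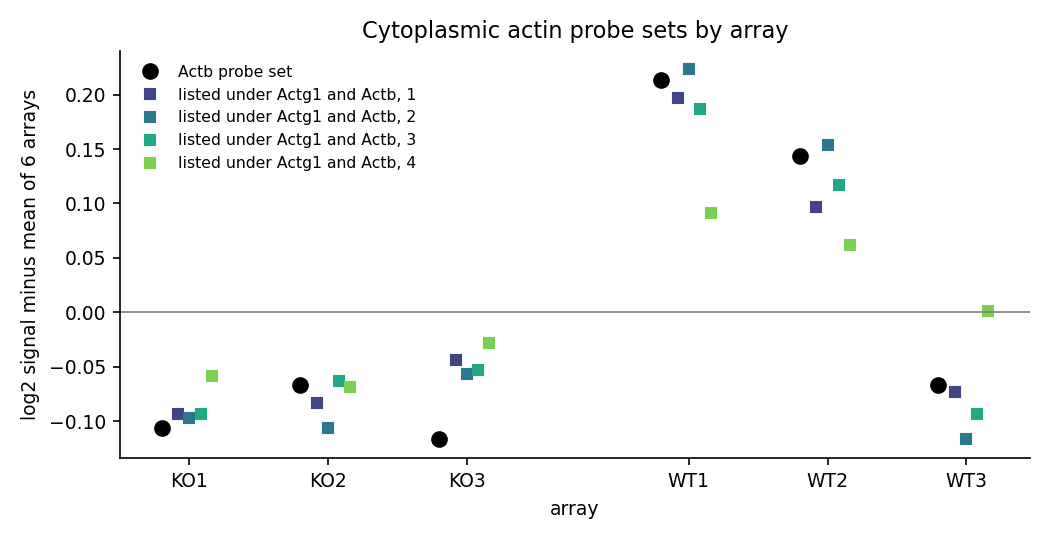
Log2 signal of the Actb probe set (circles) and of the 4 probe sets listed under Actg1 and Actb (squares) on each array, as the distance from the mean of the 6 arrays. WT replicates 1 and 2 stand above the other arrays for Actb (0.21 and 0.14), and WT replicate 3 lies with the KO arrays (-0.07).

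Of the 4 isoforms other than Acta1, 0 passed the adjusted threshold. At an unadjusted p under 0.05 there was 1 of 4, Actb, where 13.7% of all probe sets tested reached it. Lower in KO without overlap were 2 of 4, Actc1 and Actg2, against 12.9% of all probe sets, and higher without overlap were 0 of 4, against 6.12%, with Acta1 set aside because its contrast chose it. Across 15 alternative settings Acta1 stayed between 0.476 and 0.66, Actc1 between -0.13 and -0.026, Actg2 between -0.25 and -0.12 and Actb between -0.275 and -0.135, while Acta2 ran from -0.018 to 0.21. The differences of the 5 isoforms ran in both directions.

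**Figure D3:**
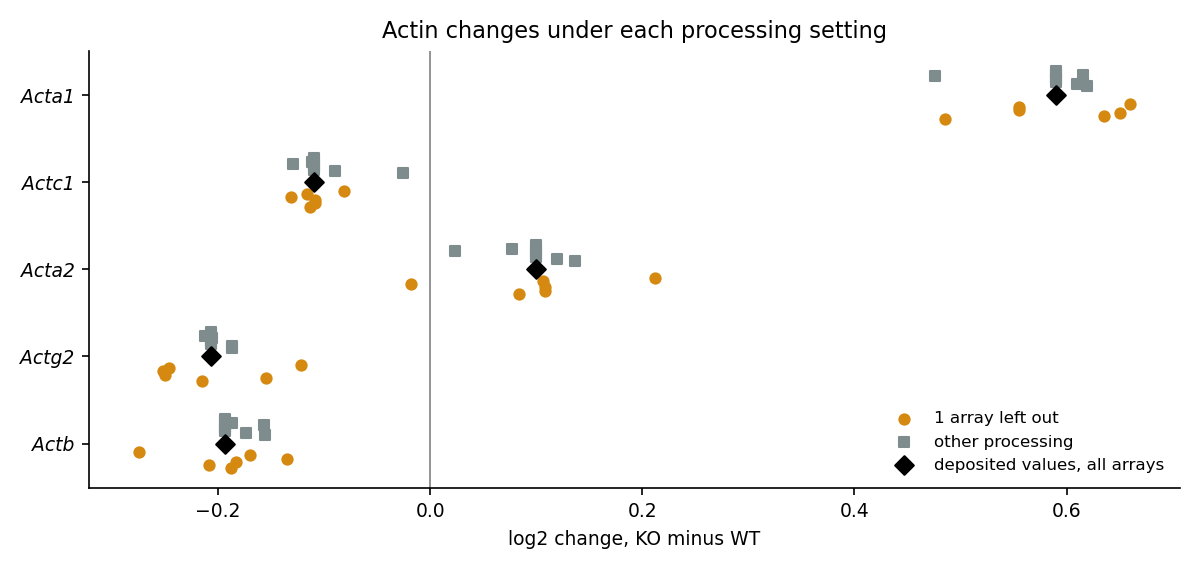
Log2 change, KO minus WT, of each actin isoform with the deposited values on all 6 arrays (diamonds), with 1 array left out (circles) and under other processing (squares). Acta1 stays at or above 0.476 throughout, Actc1, Actg2 and Actb stay below 0, and Acta2 crosses 0 without WT replicate 1.

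The genes with the profile most like that of Acta1 over the 6 arrays were Trdn, Rdh14, Sdhaf4, Neb and Hmgn5. Likeness was the root mean square distance between log2 profiles, each centred on its own mean, over 15577 probe sets of other named genes. The distance was 0.11 for Trdn (triadin of the calcium release unit), 0.12 for Rdh14 (a retinol dehydrogenase), 0.12 for Sdhaf4 (an assembly factor of succinate dehydrogenase) and 0.13 for both Neb and Hmgn5. For scale, a flat profile would lie 0.32 from Acta1. Trdn measured 10.15, 9.87 and 10.00 in KO and 9.60, 9.31 and 9.58 in WT. Among the actins Acta2 came nearest at 0.27, in place 1147, and Actc1, Actg2 and Actb were at 0.37, 0.42 and 0.43, all farther than a flat profile. These genes were chosen for their likeness to a profile that was itself chosen, so their differences carry no test.

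**Figure D4:**
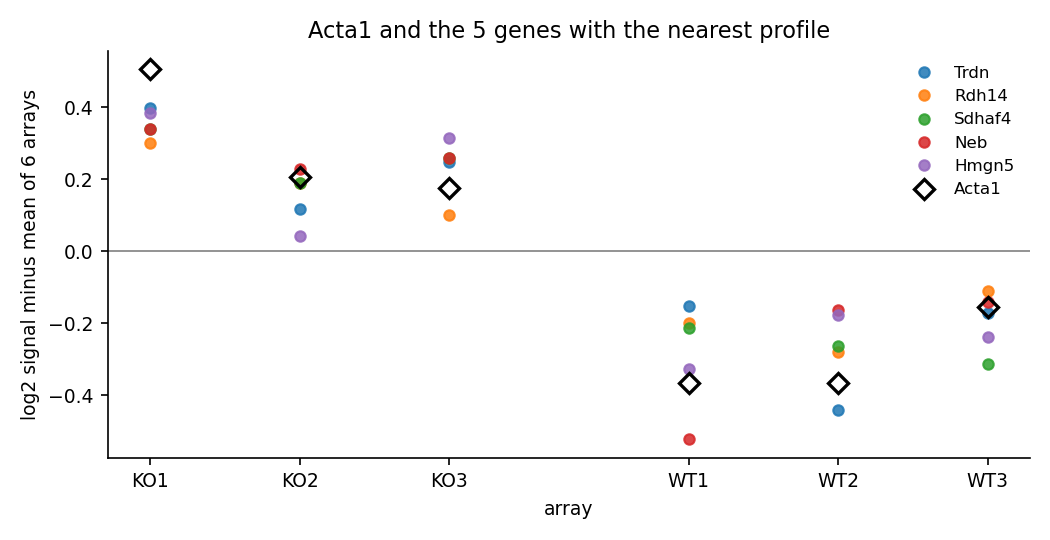
Log2 signal of Acta1 (diamonds) and of the 5 genes with the nearest profile (circles) on each array, as the distance from each gene's mean over the 6 arrays. Acta1 stands at 0.505 on KO replicate 1 and at -0.365 on WT replicates 1 and 2, and all 5 genes lie above their mean on every KO array and below it on every WT array.

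The partners of actin in the thin filament differed in both directions between genotypes. Of 21 genes 13 were higher and 8 lower, with a median of 0.03. An unadjusted p under 0.05 was reached by 4, against 13.7% of all probe sets, and 0 passed the adjusted threshold. Higher without overlap were 3, against 6.12% of all probe sets, and lower without overlap was 1, against 12.9%. Nebulin (Neb) is the giant protein that spans the thin filament of skeletal muscle. It measured 5.64, 5.53 and 5.56 in KO and 4.78, 5.14 and 5.16 in WT. The difference was 0.55 (SE 0.12), the largest of this list, and 0.43 without WT replicate 1. Neb belongs to the 5 nearest profiles above, so its difference carries no test, although it is counted among the 4 and among the 3 higher without overlap. Tropomyosin 1 (Tpm1) measured 0.14 higher and the pointed-end capping genes Tmod3 and Tmod1 0.15 and -0.14.

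Acta1 is best known from skeletal muscle, and the other genes of skeletal fibres were read beside it. Of 13 markers 11 passed the filter, 6 of them higher and 4 lower, with a median of 0.01 and 1 with an unadjusted p under 0.05, a level that 13.7% of all probe sets reached. Mybpc1, the slow skeletal myosin-binding protein C, measured 0.32 and Actn3, Mybpc2 and Tnni2 measured 0.16, 0.17 and -0.12, none past the adjusted threshold. Actn3 measured 0.093 without WT replicate 2 and Mybpc2 0.073 without WT replicate 3. The fast myosin gene Myh4 and the calcium buffer gene Pvalb were under the filter at a mean log2 signal of 3.45. The summed signal of the list ran from 8.45 to 8.57 in KO and from 8.48 to 8.51 in WT, and the groups overlapped. Its part in the Acta1 values was not tested.

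The genes that bind, cut and cap actin had a median difference of -0.09, where that of all probe sets was -0.04. Of 18 genes 12 were lower and 6 higher, close to the 59% of all probe sets that were lower. An unadjusted p under 0.05 was reached by 5 of 18, against 13.7% of all probe sets, and 0 passed the adjusted threshold. Lower without overlap were 3, against 12.9% of all probe sets, and 1 was higher, against 6.12%. Profilin 1 (Pfn1), which loads monomers onto growing filaments, measured 9.41, 9.44 and 9.41 in KO and 9.61, 9.55 and 9.64 in WT, without overlap and with a difference of -0.18 (SE 0.05, limma adjusted p = 0.21). Cofilin 1 (Cfl1) and Cap2, which help take filaments apart, measured -0.24 and -0.28, also without overlap. Gelsolin (Gsn), a severing protein, went the other way at 0.21.

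Formins and the Arp2/3 complex, which start new filaments, had 8 genes higher and 5 lower of 14, with a median of 0.04. The Arp2/3 subunits Arpc5l and Arpc1b measured 0.30 and -0.20, and the cardiac formin gene Fhod3 measured 0.15, each without overlap. In this list 3 of 14 were higher without overlap and 1 lower, against 6.12% and 12.9% of all probe sets. Diaph2, another formin, measured 0.23, but 0.10 without WT replicate 3. The largest difference of the list, 0.46, was that of the Arp2/3 subunit Actr3, which is named after its values were seen. It measured 8.03, 7.99 and 8.03 in KO and 6.87, 7.97 and 7.82 in WT, without overlap, and WT replicate 1 lay far below the other arrays. The remaining actin-related proteins had 5 higher and 7 lower of 14, with a median of -0.02, and its members with the smallest p were Actl7b at -0.26, Actr6 at 0.35, Actl9 at -0.28 and Actl10 at 0.19, the last at 0.095 without WT replicate 2. In the list for actin folding, 10 of 15 were higher with a median of 0.07. The chaperonin genes Tcp1 and Cct2 measured -0.21 and -0.14 while the prefoldin genes Pfdn1 and Pfdn4 measured 0.25 and 0.29. None of these passed the adjusted threshold, and 3 of 14, 3 of 14 and 4 of 15 members of the 3 lists had an unadjusted p under 0.05, against 13.7% of all probe sets.

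Genes that anchor actin at the Z-disc and cross-link it had 10 higher and 8 lower of 19, with a median of 0.01, and 6 of 19 had an unadjusted p under 0.05, against 13.7% of all probe sets. Higher without overlap were 5, against 6.12% of all probe sets, and lower without overlap was 1, against 12.9%. Xirp2, an actin-binding repeat protein, measured 9.67, 9.51 and 9.56 in KO and 9.34, 9.41 and 9.33 in WT, a difference of 0.22 (SE 0.06, limma adjusted p = 0.197). Telethonin (Tcap), myotilin (Myot) and the LIM-domain gene Pdlim3 measured 0.18, 0.17 and 0.20. The alpha-actinin of heart muscle, Actn2, measured -0.003.

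The transcription factors of muscle actin promoters, listed with their cofactors and signalling genes such as Rhoa, were mostly lower on average. The list was not split by the direction in which its members act. Of 18 genes 16 were lower and 2 higher, with a median of -0.13, where 59% of all probe sets were lower with a median of -0.04. Lower without overlap were 5, against 12.9% of all probe sets. An unadjusted p under 0.05 was reached by 6 of 18, against 13.7% of all probe sets, and 0 passed the adjusted threshold. Mef2d measured 8.50, 8.57 and 8.31 in KO and 8.80, 8.88 and 8.71 in WT, a difference of -0.34 (SE 0.08, limma adjusted p = 0.155). Mef2a, of the same family of muscle transcription factors, measured -0.22. The small GTPase gene Rhoa, whose signalling frees the SRF cofactors, and Fhl2, a LIM-domain cofactor, both measured -0.15. Srf itself measured 7.61, 7.77 and 7.75 in KO and 7.97, 7.81 and 7.72 in WT, overlapping. After quantile normalization the list median was -0.07, where that of all probe sets was -0.008.

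**Figure D5:**
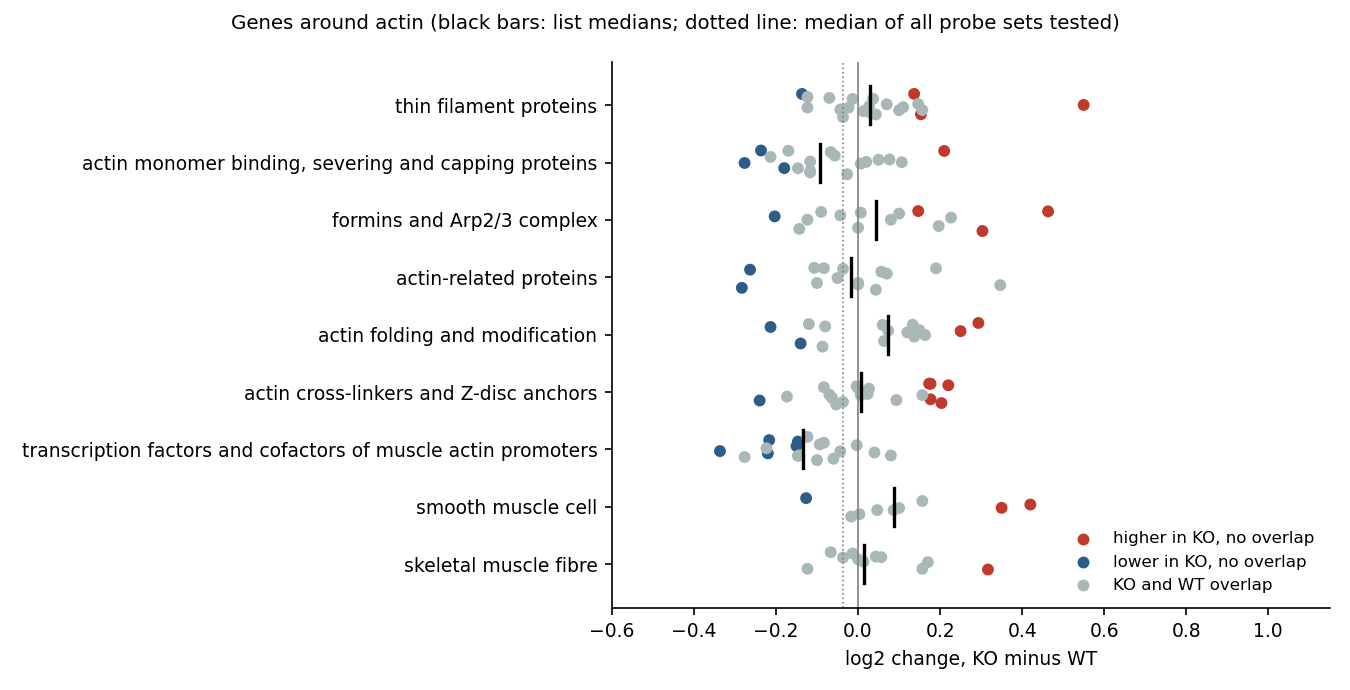
Log2 change, KO minus WT, of the genes of 7 lists around actin and of smooth and skeletal muscle markers; each point is 1 gene, black bars are list medians and the dotted line is the median of all probe sets tested (-0.04). The promoter factor list has its median at -0.13, and Neb at 0.55 stands furthest right.

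Marker lists of the other cell types in ventricular tissue differed by small amounts, and their part in the actin values was not tested. Median differences were 0.01 for 8 ventricular myocyte genes, 0.11 for the 5 atrial genes past the filter, -0.10 for 6 pericyte genes, -0.02 for 8 fibroblast genes, 0.06 for 6 endothelial genes and -0.185 for 8 macrophage genes. The atrial median turned to -0.037 without KO replicate 2 and to -0.01 without WT replicate 2, the endothelial one to -0.015 without WT replicate 3 and the fibroblast one to 0.0017 without KO replicate 3. All 8 macrophage genes were lower, where 59% of all probe sets were. Of the 8, 1 gene, C1qb, had an unadjusted p under 0.05, against 13.7% of all probe sets. It was also the 1 lower without overlap, against 12.9%. In these lists 0 genes passed the adjusted threshold. Summed log2 signals ran in KO against WT from 15.45 to 15.46 against 15.42 to 15.47 for ventricular myocytes, from 10.96 to 11.79 against 10.87 to 11.29 for atrial genes and from 11.43 to 11.57 against 11.63 to 11.71 for pericytes. They ran from 11.67 to 11.83 against 11.75 to 11.78 for fibroblasts, from 11.32 to 11.38 against 11.19 to 11.46 for endothelium and from 9.95 to 10.18 against 10.12 to 10.54 for macrophages. Of these 6 sums those of the pericyte list alone did not overlap. Of the 6 pericyte genes 4 were lower and 2, Rgs5 and Cspg4, higher, at 0.09 and 0.05. Only 1 was lower without overlap, against 12.9% of all probe sets. This was Abcc9 at -0.30, the brightest gene of the list, which weighs most in the sum. Which cells of the ventricle gave the Abcc9 signal was not measured, so the sum is not a reading of pericytes alone.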

How the data were processed

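Total RNA of the left ventricle was labelled with biotin and hybridised to 6 Affymetrix arrays, per the labels' protocols. The authors deposited 1 table of log2 signals for 35556 probe sets. The log2 scale was read from the range of the values, and the submitters' processing notes name MAS5 without role or version. Scaling, summarization and genome build are not stated there, and the values were used as deposited.

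By the platform annotation 21789 probe sets carried 1 symbol and 1621 several, and symbols were updated through RefSeq identifiers. Genotypes were compared as KO minus WT in R 4.3.3 with limma 3.58.1 (eBayes with an intensity trend, two-sided, Benjamini-Hochberg), over 24898 probe sets whose mean was at or above the 30th percentile, a log2 value of 3.45. The script was tested on simulated data. Intervals use the moderated standard error, and the number of arrays limits precision.

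A gene was represented by its brightest probe set in the 7 lists and 8 marker lists. Named are the actins, Cavin4, up to 4 members of a list with the smallest p or its defining members, and the 5 nearest profiles. Members and lists were chosen with earlier results of these data known. Alternatives were 2 scalings, 2 filters, listed probe sets only, age as a covariate, array weights, no trend, a replicate block and leaving out each array. Correlations of the deviations of same-numbered arrays were -0.059, 0.021 and -0.057, and those of differently numbered arrays ran from -0.014 to 0.073. No pairing by replicate number was visible, but so few arrays cannot exclude one.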

Additional observations from a re-analysis of the deposited data

How the results depend on the processing

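The count of probe sets past the adjusted threshold was 1 with the deposited values. It was 130 after quantile normalization, 105 after median centring, 48 with the stricter filter, 361 among listed probe sets alone, 34 with age as a covariate and 126 with array weights. It was 0 with the replicate number as a replicate block, with 3257 at an unadjusted p under 0.05 in limma, and ranged from 0 to 11 with each array left out. The cause of these differences was not tested. Under these settings Actc1, Acta2, Actg2 and Actb did not pass, with adjusted p from 0.152 to 0.97. Each replicate number holds 1 array of each genotype, so the block leaves mean differences as they are by construction. Medians close to 0 turned sign with 1 array left out: skeletal markers to -0.014 without WT replicate 2, actin-related proteins to 0.0033 without WT replicate 3, and Z-disc anchors to -0.017 without WT replicate 3. With all arrays kept, other settings also turned the medians of actin-related proteins, to as much as 0.043, and of fibroblast genes, to as much as 0.01. With each array left out, Acta2 ranged from -0.018, where its direction turned without the low WT replicate 1, to 0.21. Cavin4 kept its direction, but its adjusted p was 0.0754 with the block and 0.0646, 0.118 and 0.0777 without KO replicate 1, KO replicate 3 and WT replicate 1, within a range of 9.17e-06 to 0.118. Among listed probe sets alone Myh11 and Neb passed, with adjusted p of 0.0456 and 0.0334, within ranges of 0.0456 to 0.306 and 0.0334 to 0.308. Background can compress differences of dim probe sets such as Actg2.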
